A study of Mus musculus with 7 samples.

Results

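The 9 transcription factor genes Irf8, Irf4, Batf3, Zbtb46, Tcf4, Id2, Relb, Spib and Klf4, known for their parts in the making and function of dendritic cells, were followed across leukocytes of the inflamed mouse central nervous system. They were taken by symbol from the 27998 genes listed in all 7 libraries, and each symbol had 1 row in the files. Single-cell RNA was measured with 10x Genomics 3′ v2 chemistry in cells of B6 mice with experimental autoimmune encephalomyelitis (EAE), an inflammatory disease of brain and spinal cord that follows immunization with the MOG35-55 peptide of myelin. Cells came from mice of matching disease score at the peak of disease, 5 mice to a group. Lag3KO mice, whose genotype the labels give as Lag3Floxed, were set beside Lag3wt (WT) mice. All groups received the peptide. Cells were enriched on beads for CD45, the common leukocyte antigen (Lag3KO_CD45, n = 1 library, and WT_CD45, n = 2), or for CD4 (Lag3KO_CD4 and WT_CD4, n = 2 each). Neither a Cre line nor which mice make up a library is given in the sources used here, so the spread between libraries may be partly technical.

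Dendritic cells take up antigen and present it to T cells, and several kinds are told apart by the factors that make them. IRF8 and BATF3 act together in type 1 conventional dendritic cells (cDC1), which cross-present antigen to CD8 T cells. IRF4 and KLF4 act in the type 2 lineage, ZBTB46 marks conventional dendritic cells as a whole, and RELB belongs to the non-canonical NF-κB pathway that accompanies maturation and migration. The E protein TCF4, also called E2-2, and the ETS family factor SPIB drive plasmacytoid dendritic cells, the professional producers of type I interferon, whereas ID2 binds E proteins and keeps them off DNA.

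Each cell barcode was placed by the number of different marker genes with a UMI (a unique molecular identifier, counted once per captured RNA molecule), and none of the markers is among the 9 factors. A cDC1 needed 3 of 8 markers such as Xcr1 and Clec9a, a Cd209a dendritic cell 3 of 8 including Cd209a, a migratory dendritic cell 4 of 9 such as Ccr7 and Fscn1, and a plasmacytoid dendritic cell 5 of 10 such as Siglech and Ccr9. Monocytes needed 6 of 9 including Ly6c2 and Chil3, and B cells 3 of 7 such as Cd79a and Ms4a1. The 3 CD45 libraries held 113 cDC1, 231 Cd209a, 254 migratory and 169 plasmacytoid dendritic cells, against 706 monocytes and 150 B cells. No CD4 library reached 20 barcodes of any of these 6 classes, so every test below rests on the CD45 libraries. Those 3 libraries held 16050069 to 18940186 UMIs at a median of 5683 to 6407 UMIs per barcode. Levels are UMIs per 1e6 UMIs of the class in a library (CPM), and they are compared between classes and not between genes. Differences are log2 values ± 1 standard error (SE) and come from edgeR's quasi-likelihood test with Benjamini-Hochberg adjustment at a threshold of 0.05. In the main fits the adjustment ran over 5140 genes between classes. For genotype within a class it ran over the genes tested in that class, from 2561 in B cells to 8506 in monocytes.

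The classes carried their own markers and some RNA of others. Markers of macrophages summed to 12053 to 14773 CPM in monocytes, with a median of 3 of 6 detected per barcode, against 558 to 5454 CPM in the 4 dendritic classes, and the part of this in the results was not tested. In Cd209a cells the monocyte list summed to 1434 to 1917 CPM, with a median of 3 of 9 markers detected per barcode. It summed to 553 to 912 CPM in cDC1, 274 to 690 in migratory cells and 7570 to 9997 in monocytes. The part of this list in the levels of Cd209a cells was not tested. In plasmacytoid cells the monocyte list summed to 4390 to 4694 CPM, of which Ly6c2 alone gave 4222 CPM over the 3 libraries. In B cells the plasmacytoid list summed to 1880 to 2277 CPM through Ly6d (2008 CPM), while Ccr9, Klk1, Smim5 and Cd209d were at 0 UMIs. The cutoffs leave cells near the edge: 33 of 123 cDC1 and 81 of 243 Cd209a cells over all 7 libraries had just the minimum of markers, and 58 and 64 barcodes fell 1 short. The label of 1 library is in doubt. Lag3KO_CD45 1 held 2 Lag3 UMIs and WT_CD45 1 held 304, but the library labelled WT_CD45 2 held 4. T cells numbered 230, 208 and 337 in the same order of libraries, and the cause of the low count was not tested. Barcode sequences found in more than 1 library numbered 103.

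**Figure D1:**
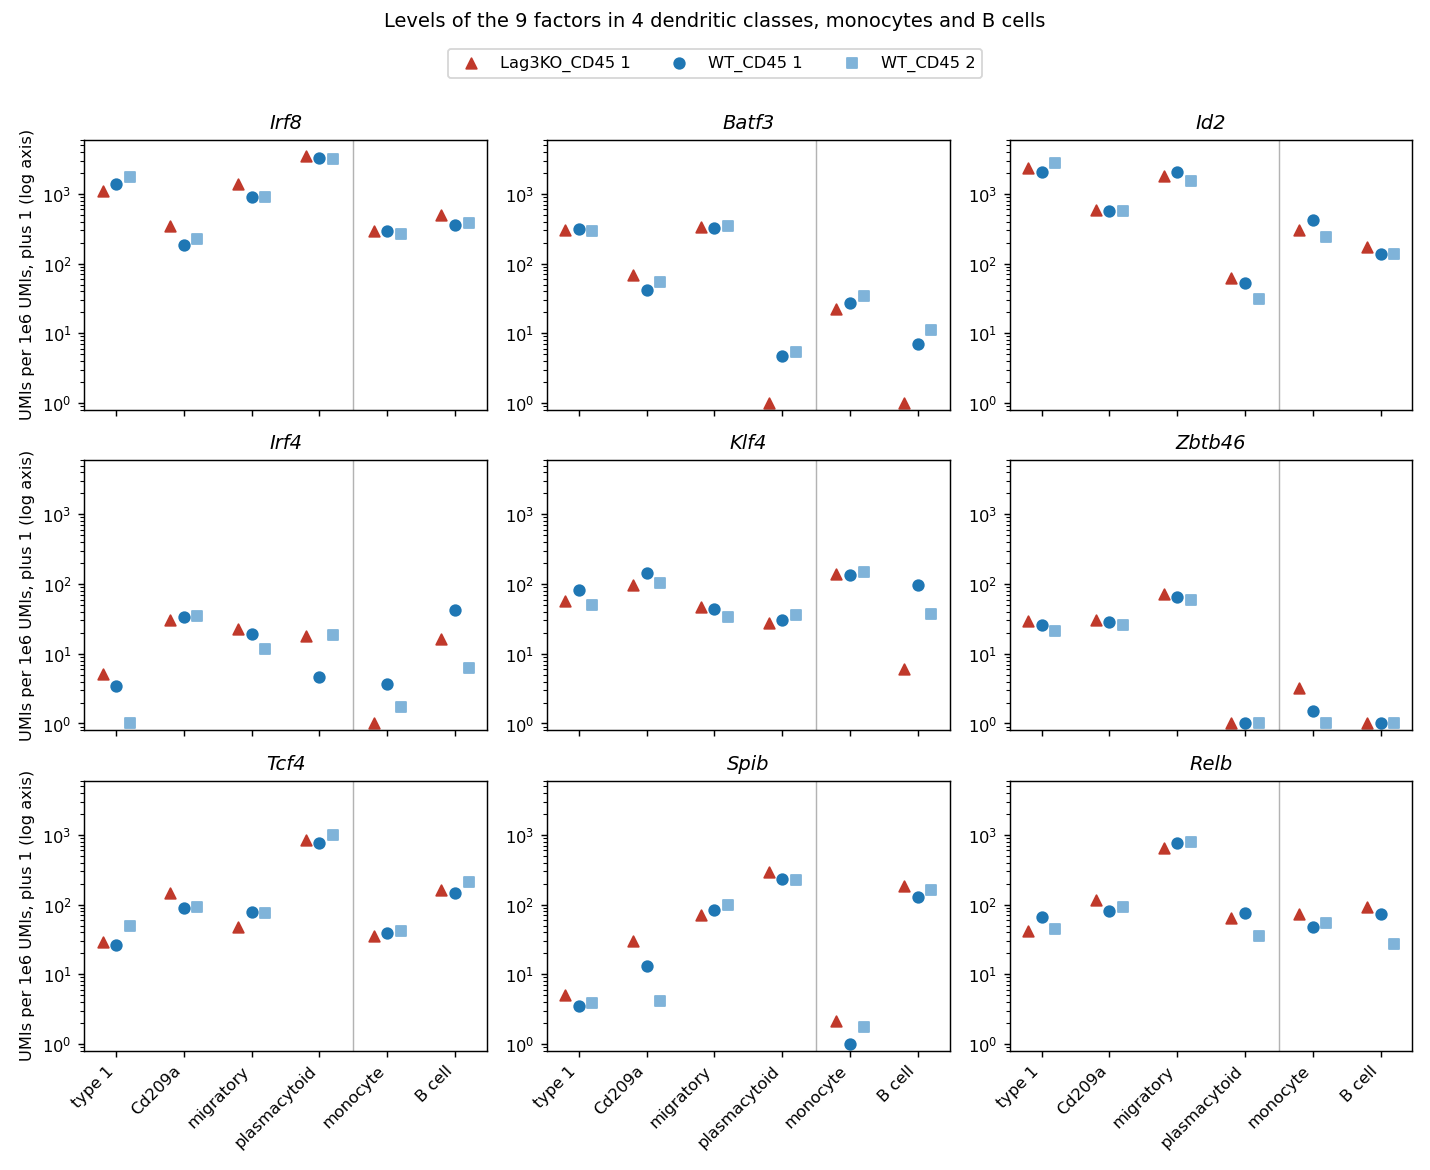
Level of each of the 9 factors (UMIs per 1e6 UMIs, plus 1, on a log axis) in 4 dendritic classes and, right of the line, monocytes and B cells. Each point is 1 CD45 library. Irf8, Tcf4 and Spib are highest in plasmacytoid cells, Relb and Zbtb46 in migratory cells, Id2 in type 1 cells and Klf4 in monocytes by mean.

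Irf8, an interferon regulatory factor needed for cDC1 and for plasmacytoid cell function (chromosome 8, 120736358 to 120756694, plus strand, GRCm38), was highest in plasmacytoid cells. It stood there at 3519 CPM in Lag3KO_CD45 1, at 3304 in WT_CD45 1 and at 3170.0 CPM in the library labelled WT_CD45 2. In cDC1 it stood at 1103, 1365 and 1744 CPM in the same order of libraries, and in migratory cells at 1399.6, 908 and 886. Plasmacytoid cells thus lay above every other class in each library, while cDC1 and migratory cells overlapped. In monocytes it stood at 293, 296 and 268 CPM, and in B cells, where the factor is also part of normal development, at 499, 360.4 and 382. Against monocytes it was higher by 3.41 ± 0.16 in plasmacytoid cells, 2.34 ± 0.16 in cDC1 and 2.05 ± 0.16 in migratory cells (edgeR adjusted p = 7.59e-16, 5.01e-12 and 1.65e-11). The difference between cDC1 and migratory cells did not pass (0.29 ± 0.16, edgeR adjusted p = 0.154). Cd209a cells were the exception among dendritic cells, at 349, 183 and 227 CPM, with -0.24 ± 0.18 against monocytes (edgeR adjusted p = 0.353) and -1.04 ± 0.20 against B cells (adjusted p = 0.000197). Without Lag3KO_CD45 1 the difference of Cd209a cells from monocytes was -0.51 (edgeR adjusted p = 0.0165). The annotated gene Gm20388 overlaps Irf8 on the same strand and held 0 UMIs in all 6 classes.

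Batf3, the AP-1 family partner of IRF8 in cDC1 (chromosome 1, 191097847 to 191108945, plus strand), was shared at like levels by cDC1 and migratory cells. It stood at 301 CPM in Lag3KO_CD45 1, 311 in WT_CD45 1 and 294 CPM in the library labelled WT_CD45 2 in cDC1, and at 333, 319 and 342 in migratory cells. Monocytes had 20.9, 25.8 and 33.1 CPM, well below both. The factor was higher than in monocytes by 3.54 ± 0.17 in cDC1 and by 3.82 ± 0.17 in migratory cells (edgeR adjusted p = 1.50e-14 and 6.02e-17), and the 2 dendritic classes did not differ past the threshold (cDC1 minus migratory -0.28 ± 0.15, adjusted p = 0.150). Cd209a cells stood between, at 67.9, 40.1 and 52.9 CPM, above monocytes by 0.96 ± 0.24 (edgeR adjusted p = 0.00251). That call was lost without Lag3KO_CD45 1 (0.61, edgeR adjusted p = 0.129). Plasmacytoid cells held 2 Batf3 UMIs over the 3 libraries and B cells 3. The plasmacytoid to monocyte ratio was 0.0960 (95% counting interval 0.0115 to 0.354), and cDC1 had 56.4 times the level of B cells (19.1 to 275).

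Id2, the inhibitor of E proteins (chromosome 12, 25093799 to 25097140, minus strand), was highest in cDC1 and lowest in plasmacytoid cells of the 6 classes. Type 1 cells held 2372 CPM in Lag3KO_CD45 1, 2058 in WT_CD45 1 and 2719 CPM in the library labelled WT_CD45 2, and migratory cells 1791, 2049 and 1516. Cd209a cells held 577, 564 and 566 CPM, monocytes 303, 414 and 239, B cells 171, 138 and 134, and plasmacytoid cells 60.2, 51.7 and 30.4. The classes lay in this order with no overlap from Cd209a cells downward. Against monocytes the difference was 2.95 ± 0.15 in cDC1, 2.66 ± 0.15 in migratory cells and 0.81 ± 0.15 in Cd209a cells, and -2.83 ± 0.24 in plasmacytoid cells (edgeR adjusted p = 2.88e-14, 1.34e-14, 0.000142 and 1.21e-10). Plasmacytoid cells were also below B cells, by -2.02 ± 0.32 (edgeR adjusted p = 1.29e-05). Type 1 minus migratory cells gave 0.29 ± 0.14, which did not pass (edgeR adjusted p = 0.113).

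Tcf4, the E protein of the plasmacytoid lineage (chromosome 18, 69343356 to 69689079, plus strand), ran the other way. Plasmacytoid cells held 853 CPM in Lag3KO_CD45 1, 772 in WT_CD45 1 and 994 CPM in the library labelled WT_CD45 2. B cells, which use several E proteins, held 161, 144 and 211, and monocytes 33.9, 38.4 and 41.2. The plasmacytoid level lay far above both in each library, by 1.94 ± 0.19 against B cells and 4.39 ± 0.16 against monocytes (edgeR adjusted p = 2.22e-09 and 3.62e-18). In Cd209a cells Tcf4 stood at 145, 89.4 and 90.2 CPM, above monocytes by 1.49 ± 0.20 (edgeR adjusted p = 1.52e-06), and in migratory cells at 47.3, 77 and 75.6 CPM, above by 0.97 ± 0.24 (adjusted p = 0.00121). The migratory call was lost when classes were taken from clusters (0.37, edgeR adjusted p = 0.287). In cDC1 it stood at 28.5, 24.9 and 49.0 CPM, on both sides of the monocyte values (-0.12 ± 0.30, edgeR adjusted p = 0.794).

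Spib, an ETS factor close to PU.1 that serves both plasmacytoid and B cells (chromosome 7, 44525993 to 44532071, minus strand), was shared by these 2 classes. Plasmacytoid cells held 294 CPM in Lag3KO_CD45 1, 229 in WT_CD45 1 and 226 CPM in the library labelled WT_CD45 2, against 181, 126 and 159.8 in B cells. The CPM ranges did not overlap, but under the edgeR scaling the difference was 0.28 ± 0.23 (adjusted p = 0.428). When libraries were scaled to total UMIs it was 0.69 (edgeR adjusted p = 0.0199), an alternative chosen after seeing the data, and with classes from clusters 0.80 (adjusted p = 0.00239). Migratory cells came next with 68.8, 83.8 and 97.2 CPM, below B cells by -1.05 ± 0.26 (edgeR adjusted p = 0.00191), a call lost without Lag3KO_CD45 1 (-0.70, adjusted p = 0.0813) and with classes from clusters (-0.26, adjusted p = 0.381). Monocytes held 3 Spib UMIs in all, so that the ratio to monocytes was 423 (95% counting interval 143 to 2070.2) in plasmacytoid cells and 136 (45.1 to 670.4) in migratory cells. In cDC1 there were 3 UMIs as well, and Cd209a cells had 29.4, 12.3 and 3.11 CPM, widely spread over the libraries.

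E proteins bind the E-box, CANNTG. Spib and Klf4, with their highest and lowest mean in plasmacytoid cells, are shown with the 250 bases before their RefSeq start (GRCm38.p6), each CANNTG, searched on both strands, in capitals. The Spib window is chr7:44532072-44532321 and the Klf4 window chr4:55532476-55532725, both on the minus strand.
Spib: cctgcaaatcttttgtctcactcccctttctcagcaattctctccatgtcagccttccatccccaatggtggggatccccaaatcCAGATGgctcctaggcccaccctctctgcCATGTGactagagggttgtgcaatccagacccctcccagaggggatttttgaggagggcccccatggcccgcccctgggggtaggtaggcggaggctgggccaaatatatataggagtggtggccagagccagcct
Klf4: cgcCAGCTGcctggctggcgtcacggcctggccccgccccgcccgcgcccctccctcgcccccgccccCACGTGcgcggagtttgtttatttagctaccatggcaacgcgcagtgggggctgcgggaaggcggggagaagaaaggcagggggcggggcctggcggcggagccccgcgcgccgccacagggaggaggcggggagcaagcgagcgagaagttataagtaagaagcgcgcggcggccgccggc
Each window holds 2 matches. At least 1 match was found in 66.2% of 32851 promoter windows of this length and at least 2 in 31.8%. RefSeq windows were matched for 7 of the 9 factors.

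Zbtb46, a zinc finger factor found in conventional dendritic cells and not in other myeloid cells (chromosome 2, 181387762 to 181459426, minus strand), was detected in the 3 conventional classes and was at 0 UMIs in plasmacytoid and B cells of the CD45 libraries. Migratory cells held 70.9 CPM in Lag3KO_CD45 1, 63.4 in WT_CD45 1 and 57.6 CPM in the library labelled WT_CD45 2. Cd209a cells held 29.4, 27.7 and 24.9 CPM, cDC1 28.5, 24.9 and 20.2, and monocytes 2.26, 0.526 and 0. The 3 conventional classes lay above monocytes in every library, by 5.89 ± 0.43 in migratory cells, 4.48 ± 0.51 in Cd209a cells and 4.38 ± 0.57 in cDC1 (edgeR adjusted p = 2.80e-11, 2.39e-07 and 1.40e-06). Migratory cells were above Cd209a cells (Cd209a minus migratory -1.41 ± 0.31, edgeR adjusted p = 0.000777), while cDC1 minus Cd209a gave -0.10 ± 0.40 (adjusted p = 0.921). With a floor of 3 UMIs over the 3 libraries, migratory cells were at least 17.3-fold higher than plasmacytoid cells and at least 12.1-fold higher than B cells. A Zbtb46 UMI was found in 24.8% of migratory cells at median depths of 3866 to 4528 UMIs, against 1.03% of T cells at 3148.5 to 3365. At 2000 UMIs per barcode the shares were 13.8% and 0.387%, with every barcode deep enough.

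Irf4, which acts in type 2 dendritic cells and in B cells (chromosome 13, 30749226 to 30766976, plus strand), gave few tags. Cd209a cells had the highest mean and the steadiest values, 29.4 CPM in Lag3KO_CD45 1, 32.4 in WT_CD45 1 and 34.2 CPM in the library labelled WT_CD45 2. B cells held 15.1, 42.1 and 5.16 CPM, migratory cells 21.5, 18.1 and 10.8, and plasmacytoid cells 16.7, 3.70 and 17.4. The Cd209a values lay above those of migratory and plasmacytoid cells in every library, and B cells spread over the range of the other 3 classes. Cd209a minus migratory cells gave 0.64 ± 0.48 (edgeR adjusted p = 0.298), and the neighbours in the order of means (Cd209a, B, migratory, plasmacytoid) did not differ past the threshold (edgeR adjusted p = 0.709, 0.759 and 0.357). Monocytes held 0, 2.63 and 0.736 CPM. Against them Irf4 was higher by 4.45 ± 0.56 in Cd209a cells, 3.82 ± 0.68 in migratory cells and 3.06 ± 0.84 in plasmacytoid cells (edgeR adjusted p = 4.62e-07, 2.84e-05 and 0.00350). The plasmacytoid call was lost without Lag3KO_CD45 1 (2.21, edgeR adjusted p = 0.127). In cDC1 there were 2 Irf4 UMIs, a ratio to B cells of 0.102 (95% counting interval 0.0110 to 0.468).

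Klf4, a Krüppel-like factor of monocytes and of some type 2 dendritic cells (chromosome 4, 55527143 to 55532466, minus strand), was the 1 factor of the 9 with its highest mean in monocytes. Cd209a cells held 97.3 CPM in Lag3KO_CD45 1, 142 in WT_CD45 1 and 103 CPM in the library labelled WT_CD45 2, against 137, 132 and 146 in monocytes. These ranges overlapped (-0.30 ± 0.19, edgeR adjusted p = 0.277). The level was 57.0, 82.2 and 49.0 CPM in cDC1, 45.1, 43.0 and 32.4 in migratory cells and 26.8, 29.6 and 34.7 in plasmacytoid cells. All 3 lay below monocytes, by -1.11 ± 0.24, -1.58 ± 0.25 and -2.33 ± 0.31 (edgeR adjusted p = 0.000537, 6.33e-06 and 3.47e-07). B cells scattered from 5.04 CPM in Lag3KO_CD45 1 to 96.1 in WT_CD45 1, with 36.1 in the library labelled WT_CD45 2. The higher level of Cd209a cells against B cells (1.11 ± 0.36, edgeR adjusted p = 0.0184) was lost without Lag3KO_CD45 1 (0.72, adjusted p = 0.154) and without the library labelled WT_CD45 2 (1.11, adjusted p = 0.0653).

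Relb, a subunit of NF-κB that the non-canonical pathway releases together with p52 (chromosome 7, 19606217 to 19629438, minus strand), set migratory cells apart from all other classes. Migratory cells held 654 CPM in Lag3KO_CD45 1, 763 in WT_CD45 1 and 799 CPM in the library labelled WT_CD45 2. Every value of the other 5 classes lay between 25.8 and 115 CPM. The difference was 3.84 ± 0.18 against monocytes and 3.45 ± 0.26 against B cells (edgeR adjusted p = 1.38e-16 and 7.95e-12), and Cd209a minus migratory cells gave -3.18 ± 0.20 (adjusted p = 2.06e-13). Cd209a cells held 115, 80.1 and 90.2 CPM, against 72.4, 47.3 and 53.7 in monocytes, a difference of 0.67 ± 0.23 (edgeR adjusted p = 0.0273). That call was lost without WT_CD45 1 (0.67, edgeR adjusted p = 0.117), without the library labelled WT_CD45 2 (0.62, adjusted p = 0.0633), with a stricter gate (0.68, adjusted p = 0.0839) and in DESeq2 (0.66, adjusted p = 0.104). In cDC1 and plasmacytoid cells the difference from monocytes was -0.14 ± 0.29 and -0.11 ± 0.30 (edgeR adjusted p = 0.757 and 0.789).

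**Figure D2:**
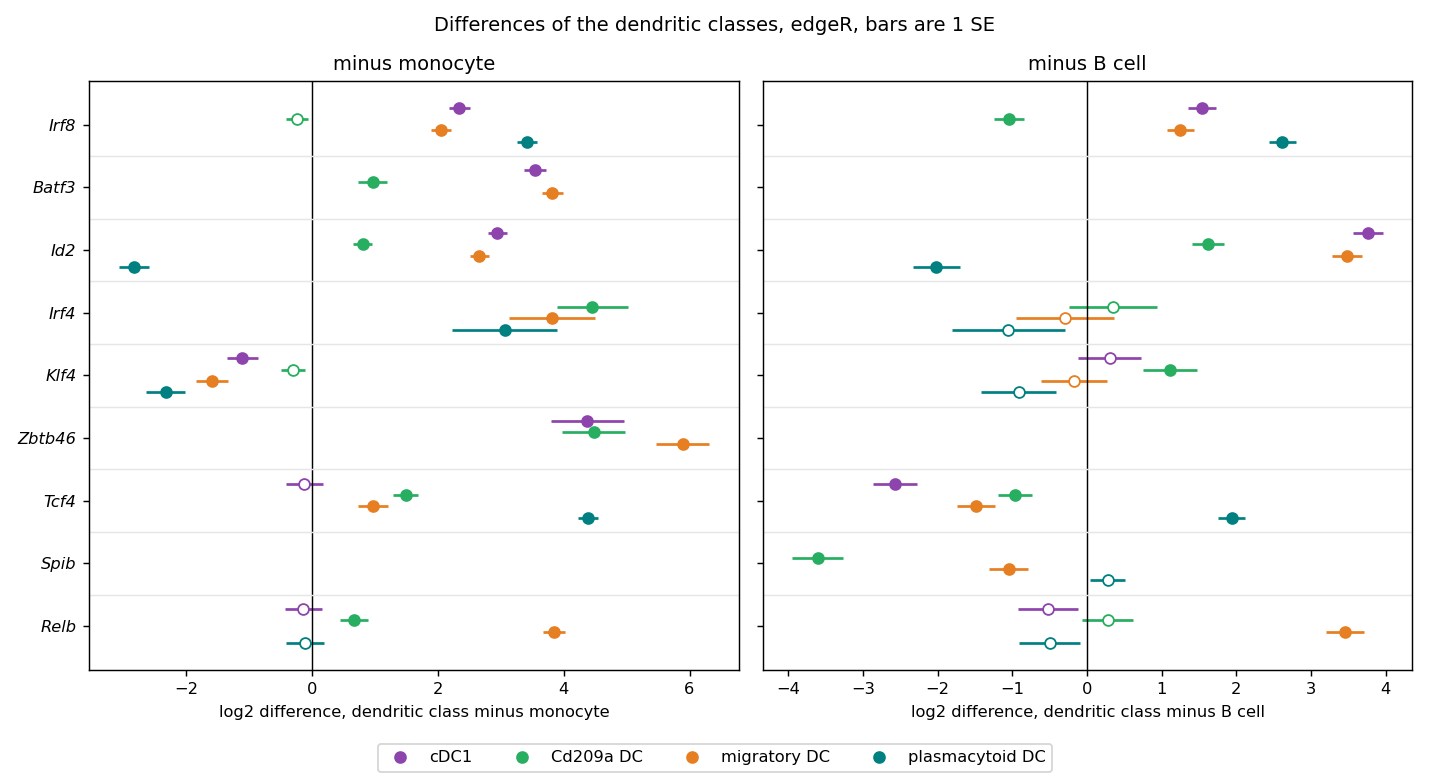
Log2 difference of each factor between a dendritic class and monocytes (left) or B cells (right), with bars of 1 SE from edgeR. Filled points passed the threshold and open ones did not. Differences in which a class held 3 or fewer UMIs are not drawn. Relb of migratory cells (3.84 against monocytes) and Id2 of plasmacytoid cells (-2.83) stand apart from the other classes.

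The 9 factors were chosen for these lineages, so their calls are set beside the share of all 5140 tested genes called in the same direction. In cDC1 minus monocytes 4 were higher (16.2% of all genes) and 1 lower (18.1%), and in cDC1 minus B cells 4 were higher (15.5%) and 3 lower (14.4%). In Cd209a cells 7 were higher than in monocytes (13.5% of all genes) and 0 lower (14.2%), with 9 of 9 factors tested by edgeR. An unadjusted edgeR p under 0.05 was found for 7 factors, against 1886 of all 5140 genes, and DESeq2 gave 6 higher and 0 lower. Against B cells 4 were higher (17.6%) and 3 lower (16.0%). Migratory cells had 8 higher than monocytes (24.9%) and 1 lower (26.6%), and 5 higher than B cells (21.8%) and 2 lower (18.9%). Plasmacytoid cells had 4 higher than monocytes (24.0%) and 3 lower (24.0%), and 2 higher than B cells (13.5%) and 1 lower (13.7%). The median log2 difference of all tested genes lay between -0.03 and 0.04 in these 8 contrasts. Scaling to total UMIs, chosen after seeing the data, took that median to 0.37 in plasmacytoid minus B cells, 0.33 in Cd209a minus B cells, 0.27 in cDC1 minus B cells, 0.11 in migratory minus B cells, 0.17 in plasmacytoid minus monocytes and -0.20 in migratory minus monocytes. It also changed the split of all calls, with 1112 higher and 561 lower in cDC1 minus B cells against 797 and 741 under the edgeR scaling. The split became 1323 and 543 against 907 and 822 in Cd209a minus B cells, 1254 and 444 against 695 and 703 in plasmacytoid minus B cells, 1035 and 1684 against 1278 and 1368 in migratory minus monocytes, and 1520 and 1080 against 1236 and 1232 in plasmacytoid minus monocytes. Under that scaling the member calls of the 8 contrasts differed only by Spib in plasmacytoid minus B cells.

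Among the dendritic classes themselves, most factors differed between most pairs. Between migratory and plasmacytoid cells 7 of 9 passed (50.0% of all genes), between Cd209a and plasmacytoid cells 7 (34.2%), between cDC1 and plasmacytoid cells 7 (31.4%) and between Cd209a and migratory cells 7 (42.5%). Between cDC1 and Cd209a cells 6 passed (14.9%), with Irf8 (2.58 ± 0.18), Batf3 (2.58 ± 0.20) and Id2 (2.14 ± 0.15) higher in cDC1 and Irf4, Tcf4 and Klf4 lower. Between cDC1 and migratory cells 5 passed (40.0%), all lower in cDC1, namely Irf4, Zbtb46, Tcf4, Relb and Spib. Monocytes and B cells differed in 7 of 9 (43.0%), with Batf3, Id2 and Klf4 higher in monocytes.

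The Cd209a class was divided by clustering, and whether its parts are separate kinds of cell was not tested. Clustering of the CD45 libraries without the 9 factors drew 120 of its barcodes into a cluster led by Ccl17 and 83 into another led by Cd209a, Cd7 and Cd209d. The Cd7 cluster also held 7 barcodes gated as plasmacytoid cells, against 0 in the Ccl17 cluster. Its mean number of plasmacytoid markers was 1.648, against 0.641, and the part of this in the levels below was not tested. A split by a Cd7 UMI, chosen after these clusters were seen and given here without a test, put 40 barcodes of Lag3KO_CD45 1, 49 of WT_CD45 1 and 25 of the library labelled WT_CD45 2 on the Cd7 side, against 41, 49 and 27. Tcf4 stood at 219, 114 and 103 CPM with a Cd7 UMI, against 74.8, 66.1 and 79.9 without. Spib stood at 60.6, 22.2 and 6.84 CPM with Cd7 and at 0, 3.0 and 0 without. Tcf4 had the higher CPM on the Cd7 side in each library. In the library labelled WT_CD45 2 it rested on 15 UMIs with Cd7 against 14 without, too close to read a direction there. Spib rested on 13, 7 and 1 UMIs with Cd7, against 0, 1 and 0 without, so that no direction can be read in the library labelled WT_CD45 2. Id2 was lower on the Cd7 side, at 182, 488 and 472 CPM against 951, 637 and 645. Klf4 also had the lower CPM there, at 51.3, 129.8 and 75.2 against 141, 153 and 126. In WT_CD45 1 the Klf4 values were close, at 41 UMIs with Cd7 against 51 without. Irf8, Irf4, Batf3, Zbtb46 and Relb did not keep 1 direction over the 3 libraries. The plasmacytoid gene Bcl11a (233, 165 and 259.8 CPM, against 52.8, 45 and 22.8) was higher on the Cd7 side in each library. It was already among the leading genes of the Cd7 cluster from which the split was chosen, so its direction is no separate evidence. Siglech stood at 107, 9.50 and 27.3 CPM with Cd7 (23, 3 and 4 UMIs), against 0, 6.01 and 0 without (0, 2 and 0 UMIs), and at 1755 CPM in plasmacytoid cells. The chemokine gene Ccl17, itself a marker of the class, was lower on the Cd7 side (340.2, 161 and 13.7 CPM, against 1250.1, 1544 and 702).

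**Figure D3:**
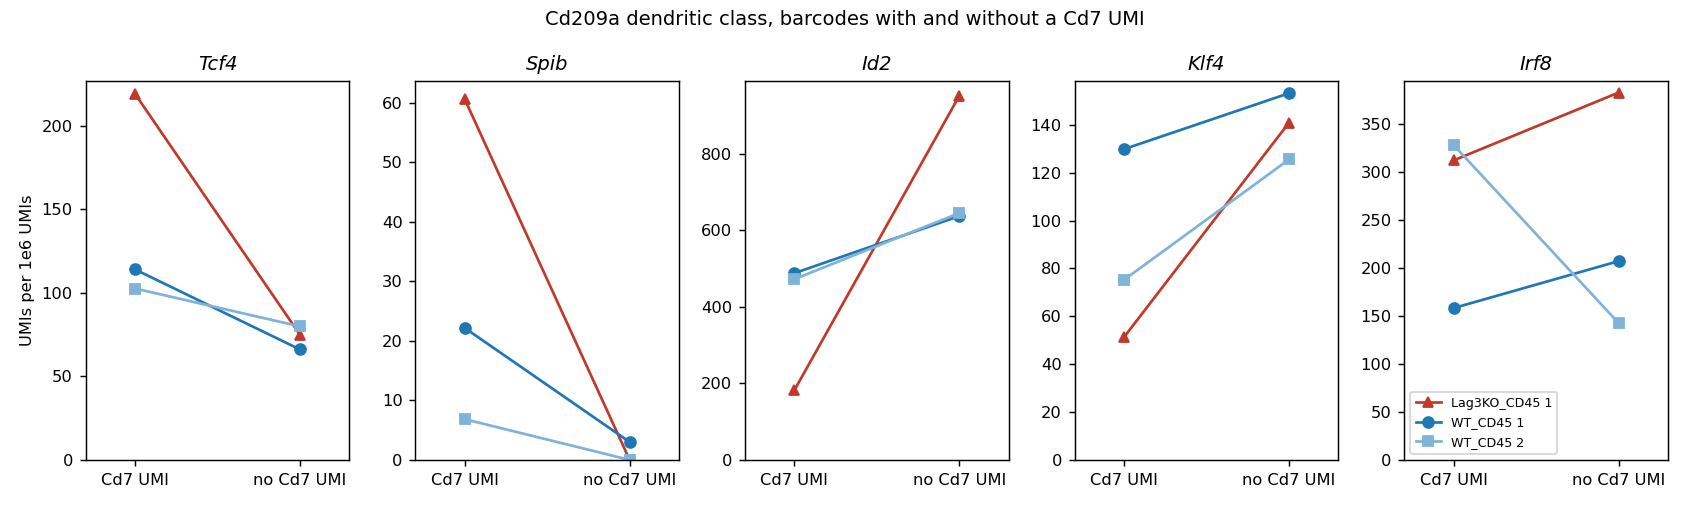
Levels of 5 factors (UMIs per 1e6 UMIs) in Cd209a dendritic cells with (left) and without (right) a Cd7 UMI, 1 line for each CD45 library. With a Cd7 UMI, Tcf4 is higher and Id2 and Klf4 are lower in CPM in all 3 libraries. Tcf4 is close in the library labelled WT_CD45 2 (15 against 14 UMIs), and Klf4 in WT_CD45 1 (41 against 51). Spib rests on 1 UMI in the library labelled WT_CD45 2, and Irf8 has no common direction.

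Other factors were read from lists by role, and list members that are counted in 2 lists appear under both. Their counts stand beside the shares of all genes higher or lower than in monocytes, which were 16.2% and 18.1% in cDC1, 13.5% and 14.2% in Cd209a cells, 24.9% and 26.6% in migratory cells and 24.0% each way in plasmacytoid cells. Of 8 plasmacytoid side factors, 6 were higher and 1 lower in plasmacytoid cells than in monocytes, led by Tsc22d1 (6.19 ± 0.21), a leucine zipper gene, and Bcl11a (5.31 ± 0.20), a zinc finger factor of lymphoid and plasmacytoid cells (edgeR adjusted p = 5.14e-18 and 3.62e-18). Of the same list 4 were higher and 1 lower in Cd209a cells, led by Bcl11a (3.54 ± 0.23, edgeR adjusted p = 1.93e-12) and Cbfa2t3, a corepressor (2.26 ± 0.19, adjusted p = 4.27e-10). It gave 2 higher and 1 lower in cDC1 and 3 higher and 2 lower in migratory cells, where Cbfa2t3 (2.76 ± 0.20 and 3.32 ± 0.18) and Zeb2 (-3.08 ± 0.28 and -2.41 ± 0.25) led (edgeR adjusted p = 7.81e-12, 5.38e-15, 7.17e-10 and 2.76e-09). The list's median was 3.12 in plasmacytoid cells, 0.99 in Cd209a cells, -0.08 in cDC1 and -0.58 in migratory cells.

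Of 7 type 1 side factors 5 were tested, and no contrast with monocytes had more than 2 higher. The MYC family gene Mycl, known from cDC1, held 1 UMI in monocytes and gave ratios of 420 in cDC1 (95% counting interval 73.3 to 16784), 264 in plasmacytoid cells (44.9 to 10676), 60.5 in Cd209a cells (9.49 to 2530) and 17.0 in migratory cells (1.68 to 836). Nfil3, known upstream of cDC1, was lower than in monocytes in cDC1 (-1.72 ± 0.28), Cd209a cells (-1.92 ± 0.25) and plasmacytoid cells (-3.35 ± 0.39; edgeR adjusted p = 1.63e-05, 1.05e-06 and 3.77e-08). Batf was lower in migratory cells (-2.16 ± 0.43, edgeR adjusted p = 0.000106).

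Most tested activation factors and non-canonical NF-κB genes were higher in migratory cells than in monocytes, as Relb was, where 24.9% of all genes were higher and 26.6% lower. All 8 tested activation factors were higher there than in monocytes (median 3.03), with Stat4, a signal transducer of interleukin 12, at 6.08 ± 0.34 (edgeR adjusted p = 1.04e-14) and Ikzf4, a zinc finger factor, at a ratio of 157 (95% counting interval 42.0 to 1321). Of 9 tested non-canonical NF-κB genes 7 were higher and 1 lower, led by Birc2, a ubiquitin ligase (4.05 ± 0.18), and Map3k14, the kinase NIK (3.19 ± 0.24; edgeR adjusted p = 5.36e-17 and 4.74e-12). In Cd209a cells 6 of 8 activation factors were higher and 0 lower, led by Stat4 (2.58 ± 0.57) and Bhlhe40 (1.87 ± 0.20; edgeR adjusted p = 0.000868 and 2.08e-08), and 3 of 9 non-canonical genes were higher and 1 lower, among them Cd40 (1.13 ± 0.17, adjusted p = 6.00e-06). In cDC1, the activation list had 1 higher (Etv3, 0.96 ± 0.31) and 1 lower (Rela, -1.12 ± 0.34), and the non-canonical list 2 higher, with Chuk at 1.58 ± 0.23, and 1 lower (edgeR adjusted p = 0.0161, 0.0104 and 3.72e-06). Plasmacytoid cells had 0 activation factors higher and 1 lower (Rel, -0.93 ± 0.33, edgeR adjusted p = 0.0191), and 2 non-canonical genes higher and 2 lower, with Cd40 at -2.88 ± 0.39 (adjusted p = 5.05e-07). The BAFF receptor gene Tnfrsf13c held 1 UMI in monocytes and gave a ratio of 207 in plasmacytoid cells (95% counting interval 34.7 to 8441), 30.4 in cDC1 (3.68 to 1396) and 17.8 in Cd209a cells (1.99 to 842). The counts depended in part on the reference. Against B cells, migratory cells had 7 of 8 activation factors higher and 0 lower, and 4 of 9 non-canonical genes higher and 1 lower. For Cd209a cells these counts were 2 and 0, and 2 and 1. They were 0 and 1, and 2 and 2, in cDC1, and 0 and 2, and 0 and 3, in plasmacytoid cells.

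Of 9 tested monocyte and macrophage factors, the number lower than in monocytes was 9 in plasmacytoid cells, 8 in migratory cells, 6 in cDC1 and 5 in Cd209a cells, and 1 was higher in migratory cells. Maf, a factor of macrophages, was lower in Cd209a cells (-3.95 ± 0.53) and cDC1 (-3.14 ± 0.54), and plasmacytoid cells held 2 UMIs, a ratio of 0.0535 (95% counting interval 0.00644 to 0.195). The edgeR adjusted p was 1.46e-06 in Cd209a cells and 3.33e-05 in cDC1. Cebpb (-3.50 ± 0.40) and Klf2 (-3.17 ± 0.35) led in migratory cells (edgeR adjusted p = 1.85e-08 and 1.04e-08). Of 7 tested B cell factors, 5 in cDC1, 6 in Cd209a, 6 in migratory and 6 in plasmacytoid cells were lower than in B cells and 0 higher, against 14.4%, 16.0%, 18.9% and 13.7% of all genes lower in the same order of classes. Against monocytes, Ciita, the transactivator of MHC class II, was higher in cDC1 (2.07 ± 0.23) and Cd209a cells (2.06 ± 0.20), Bach2 in Cd209a cells (2.37 ± 0.55) and Tcf3 in migratory cells (1.49 ± 0.34), while Pou2f2 was lower in cDC1 (-0.64 ± 0.23; edgeR adjusted p = 2.30e-08, 8.21e-09, 0.00150, 0.000530 and 0.0313).

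Among 6 tested other interferon regulatory factors, 2 were higher and 2 lower than in monocytes in cDC1, 1 higher and 0 lower in Cd209a cells, 4 higher and 2 lower in migratory cells, and 2 higher and 2 lower in plasmacytoid cells. The counts in Cd209a and plasmacytoid cells are near the shares of all genes. Irf5 was higher in cDC1 (0.72 ± 0.13) and lower in plasmacytoid cells (-1.35 ± 0.17), Irf2 was lower in cDC1 (-0.70 ± 0.19) and Irf9 was higher in Cd209a cells (1.04 ± 0.17; edgeR adjusted p = 5.88e-05, 1.83e-07, 0.00380 and 1.71e-05). Irf3 was higher in plasmacytoid (1.21 ± 0.26) and migratory cells (0.86 ± 0.26), as was Irf1 in migratory cells (0.89 ± 0.14; edgeR adjusted p = 0.000258, 0.00637 and 8.09e-06). Of 3 tested ID and E protein genes, Tcf12, another E protein, was higher in plasmacytoid cells (2.67 ± 0.24, edgeR adjusted p = 2.70e-10). Id3 was lower in plasmacytoid (-1.32 ± 0.47) and migratory cells (-1.98 ± 0.49; edgeR adjusted p = 0.0217 and 0.00122). Its ratio in cDC1, where it held 2 UMIs, was 0.0772 (95% counting interval 0.00926 to 0.285), and in Cd209a cells no gene of this list passed.

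**Figure D4:**
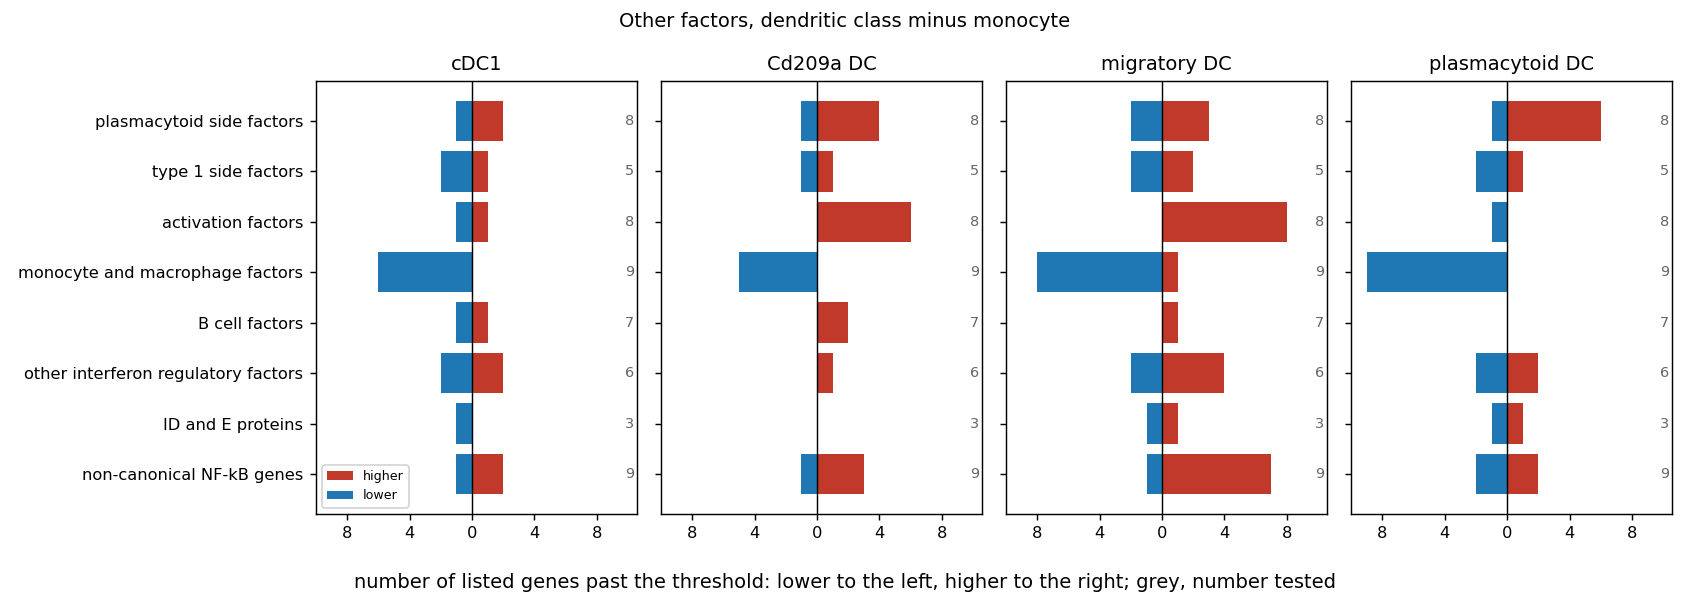
Number of genes of each list that were higher (red, right) or lower (blue, left) in a dendritic class than in monocytes, with the number tested in grey. The activation list is higher in 8 of 8 in migratory cells, and the monocyte and macrophage list is lower in 9 of 9 in plasmacytoid cells.

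Over the 18 sums of library and class, which share 3 libraries and 6 classes, the genes whose log2(CPM + 10) ran most like each factor among 5071 candidates were named as a description. Relb ran most like Serpinb9 (r = 0.962), Mmp25 (0.957) and Ramp3 (0.954), and Batf3 like Cst3 (0.964), Tmsb4x (0.955) and Rgs3 (0.937). Tcf4 ran like Prkca (0.942), Emc3 (0.938) and Rpl31 (0.926), and Spib like Satb1 (0.926), Eif4a2 (0.921) and Gpcpd1 (0.917). For Id2 these were Tmsb4x (0.935), Sh3bp1 (0.931) and Klrk1 (0.915), for Zbtb46 Pfn1 (0.932), Avpi1 (0.931) and Actn1 (0.926), and for Klf4 Ier3 (0.914), Fcgr4 (0.911) and Klf3 (0.897). Irf8 (Pafah1b3, 0.884, Nek6, 0.878, and Ppia, 0.869) and Irf4 (Rbm39, 0.760, Gpr183, 0.756, and Kynu, 0.705) had less close partners.

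The study's own comparison is that of Lag3KO with WT mice, and for these factors it rests on 1 Lag3KO library against 2 WT libraries, so that genotype and library cannot be told apart, and its directions rest on the label of the library labelled WT_CD45 2. No factor passed the threshold in any of the 6 classes. In a simulation of this test in plasmacytoid cells, 15 of 50 genes changed 2-fold were found. Of 54 pairs of factor and class 40 were tested, 6 of them had an unadjusted edgeR p under 0.05, and DESeq2 also called 0 factors. Among all tested genes such a p was found in 202 of 4271 in cDC1, 373 of 5039 in Cd209a cells and 300 of 4770 in migratory cells. The counts were 179 of 3886 in plasmacytoid cells, 537 of 8506 in monocytes and 193 of 2561 in B cells. Over all genes edgeR called 0.187% in cDC1, 1.03% in Cd209a cells, 0.692% in migratory cells, 0.0257% in plasmacytoid cells, 0.247% in monocytes and 1.37% in B cells. The Lag3KO value lay above both WT values in 24 pairs, below both in 14 and between them in 14, and 2 pairs were at 0 UMIs throughout. The same count over all genes was not made, so no tendency of the factors is read from these places.

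Irf8 came closest to the threshold. In Cd209a cells it stood at 349 CPM in Lag3KO_CD45 1, against 183 in WT_CD45 1 and 227 CPM in the library labelled WT_CD45 2 (0.71 ± 0.23, edgeR adjusted p = 0.119). The plasmacytoid marker list summed to 512 CPM in these cells of Lag3KO_CD45 1, against 287 and 171 in the WT libraries, with a median of 1 of 10 markers detected per barcode, Cd209d as its largest member (145 CPM) and Klk1 at 0 UMIs. The part of that list in this value and in that of Tcf4 in the same class was not tested. In migratory cells it stood at 1399.6 CPM in Lag3KO_CD45 1, against 908 and 886 in the WT libraries (0.57 ± 0.18, edgeR adjusted p = 0.265). Summed macrophage markers in migratory cells were 5454 CPM in Lag3KO_CD45 1, against 1073 and 2837, and their part in this was not tested. In cDC1 it lay below both, at 1103 against 1365 and 1744 CPM (-0.52 ± 0.23, edgeR adjusted p = 0.859). The difference between the genotype differences of cDC1 and Cd209a cells, tested after these values were seen, was -1.26 ± 0.25 (edgeR adjusted p = 0.257, where 0.00% of all genes passed). Between cDC1 and migratory cells it was -1.07 ± 0.23 (edgeR adjusted p = 0.158, where 0.0195% passed). In plasmacytoid cells, the class with the most Irf8, Lag3KO minus WT gave 0.06 ± 0.13 (edgeR adjusted p = 0.991).

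The other factors with an unadjusted p under 0.05 were Tcf4 in Cd209a cells (145 CPM in Lag3KO_CD45 1, against 89.4 and 90.2, 0.61 ± 0.30, edgeR adjusted p = 0.636), Relb in monocytes (72.4 against 47.3 and 53.7, 0.54 ± 0.22, adjusted p = 0.687) and Klf4 in B cells. The last rests on 1 Klf4 UMI in Lag3KO_CD45 1, against 23 in the WT libraries, a ratio of 0.0790 (95% counting interval 0.00192 to 0.486). For comparison, Lag3KO minus WT was -0.03 ± 0.31 for Batf3 in cDC1 and -0.11 ± 0.21 for Tcf4 in plasmacytoid cells (edgeR adjusted p = 0.9998 and 0.991). In migratory cells it was 0.15 ± 0.36 for Zbtb46 and -0.32 ± 0.21 for Relb (edgeR adjusted p = 0.993 and 0.972). Relb there lay below both WT values, at 654 against 763 and 799 CPM.

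**Figure D5:**
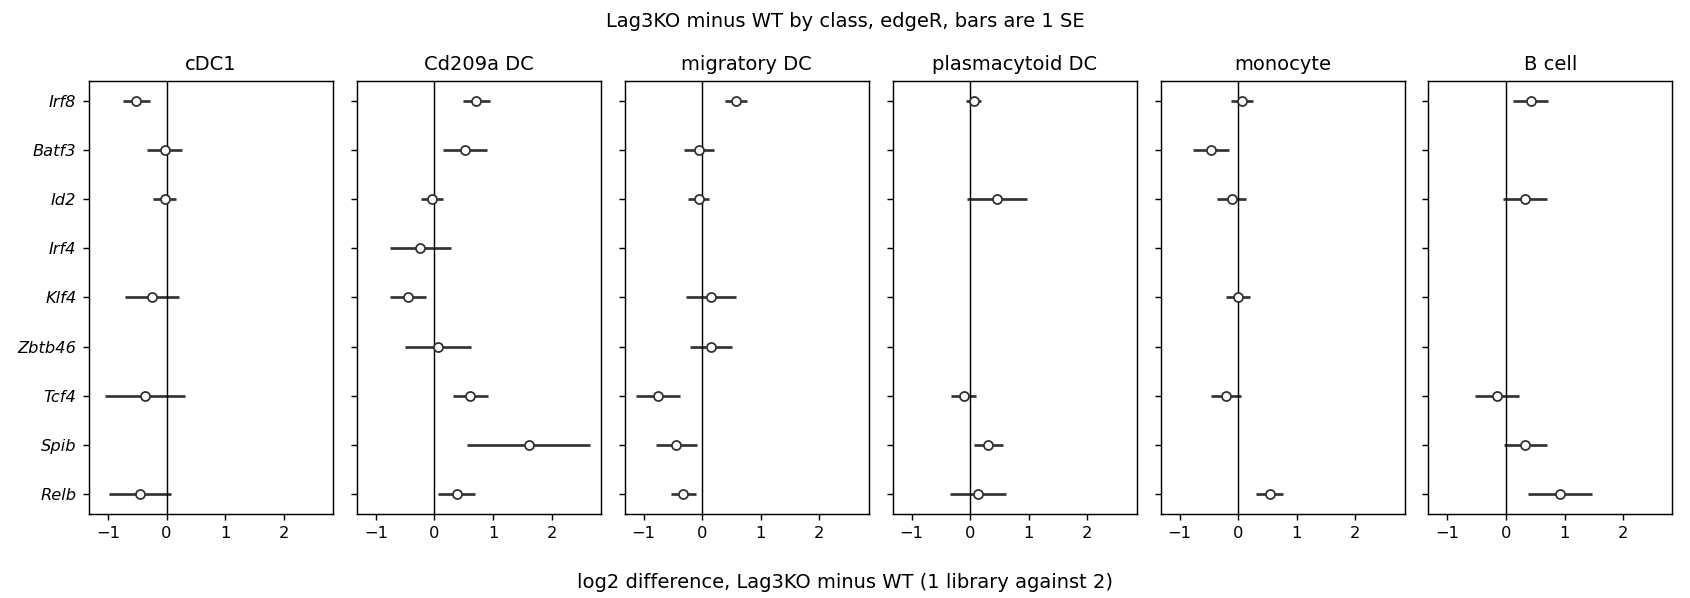
Log2 difference between the Lag3KO_CD45 library and the 2 libraries labelled WT_CD45, of which 1 label is in doubt, for each factor tested in a class. Bars are 1 SE from edgeR. All points are open because none passed the threshold. Klf4 in B cells, with 1 UMI in the Lag3KO library, is not drawn.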

How the data were processed

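The files are 10x Genomics matrices of UMI counts per gene and cell barcode, deposited without normalization by the authors. Cell Ranger, Seurat, GRCm38 and mm10 are named per the submitters' processing notes, and the matrix headers give software version 3.0.2. Barcodes with at least 200 genes and at most 10% mitochondrial UMIs were kept, and simulated doublets were removed at 0.8% per 1000 barcodes, leaving 13411 of 13922. Of these, 1731 were placed in 1 of the 6 classes and 305 met more than 1 gate. Another 946 met 1 gate but held more markers of T cells, NK cells, microglia or neutrophils than allowed, and were left out. The members, marker and gene lists were chosen with earlier results of these data known. Gate cutoffs, cluster names, the Cd7 split, the scaling to total UMIs and the test of genotype by class were chosen after values were seen.

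Counts were summed over each library and class with at least 20 barcodes, which gave 18 sums, and tested with edgeR 4.0.16 (quasi-likelihood, TMM scaling, filterByExpr) with terms for class and library. Genotype was tested within a class. DESeq2 1.42.0 was an alternative, as were its size factors, no count filter, a stricter gate, no doublet removal, classes from clusters and leaving out each library. Clusters were made without the 9 factors (scanpy 1.11.5, leidenalg 0.10.2). The tests were checked on counts simulated from the sums, with 50 genes changed at each size. The genotype test in plasmacytoid cells found 0 of 50 at 1.5-fold, 15 at 2-fold, 33 at 4-fold and 39 at 8-fold, with 2 false among 89 calls. Plasmacytoid cells minus monocytes gave 16, 23, 43 and 46 of 50, with 6 false among 134 calls. All 9 factors were described in every class. Named list genes were the strongest 2 of each list that passed, apart from a gene not reported here, and likeness was Pearson's r over the 18 sums. Intervals are exact at 95% and cover counting error only. Gene spans are from GENCODE on GRCm38.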

Additional observations from a re-analysis of the deposited data

How the results depend on the processing

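No paired analysis was possible because the labels share no replicate numbers between genotypes that mark a common animal or day, and 1 Lag3KO_CD45 library stood against 2 WT_CD45 libraries. A test of genotype by bead selection could not be fitted, since no CD4 library reached 20 barcodes of a class, and for the same reason the restriction to CD45 libraries left the values as they were. Leaving out a library in the genotype comparison leaves no residual degrees of freedom and was not run. Of 833 values of the 9 factors between classes under the alternatives, 793 kept direction and side of the threshold, 13 lost and 5 gained significance, and 22 turned direction. Of 318 genotype values 297 kept both and 21 turned. Both totals include the restriction to CD45 libraries, whose values could only stay the same. No value that turned passed the threshold in either fit, and the cause was not tested. With clusters the turned log2 differences were Relb in cDC1 (0.094) and plasmacytoid cells (0.052) and Klf4 in Cd209a cells (0.013) minus monocytes, and Irf4 in migratory minus B cells (0.25). With the stricter gate they were Relb in plasmacytoid cells minus monocytes (0.022) and Klf4 in cDC1 minus B cells (-0.11), besides Spib in cDC1 minus monocytes (-2.28) and Zbtb46 in plasmacytoid minus B cells (0.0007), where each class held 3 or fewer UMIs and no fold is read. With total UMIs it was Relb in plasmacytoid cells minus monocytes (0.028). Leaving out 1 library each gave, minus monocytes, -0.38 to 1.05 for Irf4, -0.46 to 0.12 for Tcf4 and -0.54 to 0.13 for Relb in cDC1, -0.51 to 0.0093 for Irf8 in Cd209a cells and -0.45 to 0.024 for Relb in plasmacytoid cells. Minus B cells it gave -0.77 to 0.0022 for Relb and -0.16 to 1.08 for Klf4 in cDC1, -0.095 to 0.28 for Irf4 and -0.039 to 0.58 for Relb in Cd209a cells, -0.78 to 0.84 for Klf4 in migratory cells, and -1.34 to 0.16 for Klf4 and -0.026 to 0.0 for Zbtb46 in plasmacytoid cells. Both Irf4 ranges come from 2 of these fits only. No fold is read from the range of Irf4 in cDC1, which held 2 UMIs, or of Zbtb46 in plasmacytoid cells, which held 0. Lag3KO minus WT turned with clusters for Batf3 (0.15), Id2 (0.021) and Klf4 (0.24) in cDC1, Batf3 (-0.46), Zbtb46 (-0.071) and Relb (-0.032) in Cd209a cells, Batf3 in migratory cells (0.054), Irf8 in plasmacytoid cells (-0.069), and Id2 (0.017) and Klf4 (0.23) in monocytes. It turned with the stricter gate for Relb in cDC1 (0.18), Zbtb46 (-0.48) and Id2 (0.47) in Cd209a cells, Zbtb46 in migratory cells (-0.0034), and Id2 (-0.0013) and Relb (-0.083) in plasmacytoid cells. It turned with total UMIs for Id2 in Cd209a cells (0.029) and Batf3 (0.020) and Id2 (0.0082) in migratory cells, and for Klf4 in monocytes with no filter (0.0061) and with DESeq2 size factors (0.0). With classes from clusters, 1 factor was lower in Cd209a cells than in monocytes and 2223 genes were called, and 1 factor was lower in migratory than in B cells; the cause was not tested. Leaving out 1 library each gave 0 to 1 factors lower and 892 to 1189 genes called in Cd209a cells against monocytes, and 1 to 2 factors lower in migratory against B cells. Tcf4 in Cd209a minus B cells fell short with clusters (-0.25, edgeR adjusted p = 0.426) and without the library labelled WT_CD45 2 (-0.69, adjusted p = 0.0740), Relb in that contrast passed with clusters (0.71, adjusted p = 0.0163), Irf8 in Cd209a minus monocytes gave -0.60 with clusters (adjusted p = 0.000507), and Spib with clusters gave -0.26 in migratory and 0.80 in plasmacytoid minus B cells (adjusted p = 0.381 and 0.00239). The number of genes called by genotype moved widely, for causes not tested. In cDC1 it was 8, with 0 under DESeq2 size factors, 0 with the stricter gate, 2 with clusters and 0 in DESeq2. In Cd209a cells it was 52, with 0 under DESeq2 size factors, 0 with total UMIs, 28 with no filter, 10 with clusters and 0 in DESeq2. In migratory cells it was 33, with 53 under DESeq2 size factors, 60 with the stricter gate, 52 with no doublet removal and 2 in DESeq2. In plasmacytoid cells it was 1, with 25 under DESeq2 size factors, 8 with no filter, 18 with the stricter gate, 27 with no doublet removal and 0 in DESeq2. In monocytes it was 21, with 1 for total UMIs, 83 with no filter, 4 with no doublet removal, 43 with clusters and 0 in DESeq2. In B cells it was 35, with 22 with no filter, 19 with no doublet removal, 0 with clusters and 2 in DESeq2. Depth limits Irf4, Batf3, Zbtb46 and Spib, which held 6 or fewer UMIs in some classes.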

Other observations

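The 4 CD4 libraries held few dendritic cells, and their values are given without a test. Over both Lag3KO_CD4 libraries 10 plasmacytoid cells held Irf8 at 4433 CPM, Tcf4 at 598 and Spib at 408. Over both WT_CD4 libraries 9 such cells held Irf8 at 4788 CPM, Tcf4 at 868 and Spib at 209. Batf3 and Klf4 were at 0 UMIs in both. In Lag3KO_CD4, 8 cDC1 held Irf8 at 2119 CPM, Id2 at 1785 and Batf3 at 316.

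Some of the factors were also found outside the 6 classes. Microglia, the resident macrophages of the brain, held Irf8 at 746 and 796 CPM in the Lag3KO_CD4 libraries, against 770.2 and 897 in the WT_CD4 libraries. In the CD45 libraries it was 383 CPM in Lag3KO_CD45 1 and 590.5 in the library labelled WT_CD45 2. Id2 was high in NK cells, which need it, at 1401 to 1621 CPM in the CD45 libraries, and in T cells at 1041 to 1218 CPM. Klf4 in macrophages of the CD45 libraries ran from 98.8 to 110.2 CPM, and Spib in NK cells and microglia was at 0 UMIs in these libraries.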
